A study of Rattus norvegicus with 6 samples.

Results

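p53 is a transcription factor that is held at a low level by the ubiquitin ligase MDM2 and accumulates after DNA damage and other stress. It then switches on genes that stop the cell cycle, limit oxidative and metabolic stress or start cell death, and one of its targets is Mdm2 itself, which closes a feedback loop. Senescence is a lasting arrest of the cell cycle that builds up in tissues with age, and its usual RNA markers are the cyclin-dependent kinase inhibitors Cdkn1a (p21), Cdkn2a (p16 and p19Arf) and Cdkn2b (p15), while Lmnb1, which encodes a protein of the nuclear lamina, is known to decline in senescent cells. Here 8 of these genes were followed in transplanted rat hearts, namely the 3 inhibitors, the p53 targets Mdm2, Ccng1, Sesn1 and Phlda3, and Lmnb1. They were taken by gene symbol from a deposited table of 22250 rat genes, and all 8 symbols were found there.

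Gene expression was compared between 3 young donor hearts, from wild-type Sprague-Dawley rats of 10 weeks, and 3 aged donor hearts, from wild-type rats of the same strain aged 1 year. All donors were male according to the methods of the study, and each heart had gone through cold storage in preservation solution and heterotopic transplantation into a young recipient before left ventricular myocardium was taken on postoperative day 1. The comparison asks how donor age relates to the state of the graft after surgery, and it holds no heart that was not transplanted. A heterotopic graft does not carry a normal load, and cells that entered from the recipient are part of the tissue, so the RNA of donor and recipient cells was counted together. Hearts are named by group and animal number, and young animal 3 and aged animal 3 are different animals.

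Reads counted on genes ranged from 21457509 to 24560869 per heart, and TMM scaling factors ran from 0.733 to 1.24. Levels are given as CPM, the read count relative to the TMM-scaled size of its library, and as the deposited FPKM, which divides by gene length and is used to compare genes with each other. Young animal 15 stood apart from young animals 3 and 13, and calls of the 8 genes that change without it are given both ways. Every one of the 11 cardiomyocyte markers found in the table was read in every heart, with a summed level of 14220 to 98660 CPM in young and 189.5 to 8767 CPM in aged donor hearts. Neutrophil markers summed to 17.9 to 154.4 CPM in young and 392 to 1469 CPM in aged donor hearts, and macrophage markers to 381.8 to 2482 and 3863 to 7411 CPM. By the limits given below, all 10 tested neutrophil markers and 6 of 12 macrophage markers were higher. Without young animal 15, 12 of 12 macrophage markers were higher, beside 3802 of 14109 genes. Of 11 cardiomyocyte markers, 4 were lower by these limits, but all 11 had a negative log2 fold change, with a median of -3.18. In 8 of the 11, every aged heart lay below every young heart, an order that 20.6% of genes tested had. Myh7 had the smallest change (log2 fold change -0.25) and was highest in aged animal 7. Lower were 3 of 9 fibroblast and 1 of 8 endothelial markers, and 2 of 7 T cell markers were higher. Among all genes 13.2% were higher and 19.0% lower. Of the neutrophil markers, Retnlg and Camp were at 0 in at least 1 heart. The 13 mitochondrially encoded genes took 11.9% to 21.7% of counts in young and 6.57% to 10.3% in aged donor hearts. In such tissue RNA, fewer cells of a type cannot be told apart from less RNA per cell.

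A gene is called higher or lower here when its fold change was above 1.5 or below 0.67 and its unadjusted p from edgeR's quasi-likelihood test was under 0.05. The study states the same fold limits and a P under 0.05, without saying whether that P was adjusted. Of 13784 genes tested, 4436 passed the limits used here, which is 32.2%, with 13.2% higher and 19.0% lower in aged donor hearts. After Benjamini-Hochberg adjustment 0 genes had an adjusted p under 0.05 in edgeR, so the background by that rule is 0.0%, against 3592 genes in DESeq2 and 4731 with an unadjusted p under 0.05 in edgeR. Every call below is therefore a call at an unadjusted p.

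The 8 genes did not move as a group. Sesn1 and Ccng1 were lower in aged donor hearts, Mdm2 lay slightly higher without passing the limits, and Cdkn1a was nearly level. The senescence markers Cdkn2a and Cdkn2b had the fewest reads of the 8 genes in every heart, and Lmnb1 was not lower. Of the 7 genes that passed the filter on low counts, all except Cdkn2a, 2 were called, both lower, beside the 32.2% called among all genes. The median log2 fold change of the 7 was 0.30, against 0.016 over all tested genes.

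The bases before the start of transcription are shown for Cdkn1a, Ccng1 and Sesn1, because these were the members whose window held a match to the p53 half-site, the 10-base motif to which one p53 dimer binds. Sequences are from RefSeq on build GRCr8, 250 bases ending just before the gene's start, read 5′ to 3′ on the gene's strand, with the match in capitals. The windows lie at chr20:7150682-7150931 on the plus strand for Cdkn1a, chr10:25684877-25685126 on the minus strand for Ccng1 and chr20:46948469-46948718 on the plus strand for Sesn1.
Cdkn1a: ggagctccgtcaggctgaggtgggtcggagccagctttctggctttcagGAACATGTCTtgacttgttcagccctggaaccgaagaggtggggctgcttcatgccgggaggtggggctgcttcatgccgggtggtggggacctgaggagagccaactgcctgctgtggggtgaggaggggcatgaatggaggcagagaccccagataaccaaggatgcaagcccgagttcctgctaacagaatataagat
Ccng1: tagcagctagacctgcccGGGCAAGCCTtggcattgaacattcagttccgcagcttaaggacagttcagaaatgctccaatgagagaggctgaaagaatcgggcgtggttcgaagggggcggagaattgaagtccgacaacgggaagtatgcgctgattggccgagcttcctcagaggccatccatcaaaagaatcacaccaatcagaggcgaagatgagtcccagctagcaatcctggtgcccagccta
Sesn1: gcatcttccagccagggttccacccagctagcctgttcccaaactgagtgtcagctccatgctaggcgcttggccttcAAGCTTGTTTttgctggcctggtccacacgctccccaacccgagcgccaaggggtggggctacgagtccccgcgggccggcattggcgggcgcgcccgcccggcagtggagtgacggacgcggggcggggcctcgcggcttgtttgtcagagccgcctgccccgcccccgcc

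The motif reads the same in form on both strands, so both were covered. The match lay 201 to 192 bases before the start in Cdkn1a (GAACATGTCT), 232 to 223 bases before it in Ccng1 (GGGCAAGCCT) and 172 to 163 bases before it in Sesn1 (AAGCTTGTTT). All 8 genes had a window, and 3 of the 8 windows held the motif, against 6.64% of 33469 RefSeq windows of the same length. The windows of Mdm2, Phlda3, Cdkn2a, Cdkn2b and Lmnb1 held none, which says only that these letters are absent from these bases, as other starts and introns were not searched. The GC box GGGCGG, searched on both strands, was found in 6 of the 8 windows, 4 times in Phlda3 and 3 times each in Sesn1 and Cdkn2b, against 30.5% of all windows. The 3 genes that share the half-site did not share a direction, since Sesn1 and Ccng1 were lower and Cdkn1a was nearly level.

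Sesn1 encodes sestrin 1, which p53 induces and which restrains mTORC1 and oxidative stress. It had the largest difference of the 8 genes. Its gene (ENSRNOG00000000302) lies at 46667121 to 46758305 of chromosome 20, plus strand, in build Rnor_6.0, which holds for all gene positions given here. It was at 239.9, 240.2 and 43.7 CPM in young animals 3, 13 and 15, and at 21.5, 34.2 and 21.0 CPM in aged animals 3, 4 and 7. The groups did not overlap, with the aged hearts below, an order that 20.6% of genes tested had, but young animal 15 lay much closer to the aged hearts than to the other young hearts. The group means were 174.6 ± 113.4 CPM in young and 25.6 ± 7.45 CPM in aged donor hearts (SD, n = 3 each). The log2 fold change was -2.77 (standard error 0.66, unadjusted p = 0.00495, adjusted p = 0.0916 in edgeR with Benjamini-Hochberg adjustment), and the exact permutation test gave p = 0.1, the smallest that 3 hearts against 3 allow. It was -3.20 without young animal 15 and -2.47 without young animal 3. With the mean level of the cardiomyocyte markers in each heart as a covariate it was -1.86 and no longer passed (unadjusted p = 0.131). A second annotated gene, AABR07045411.1, lies within Sesn1 on the same strand and had 0 reads in every heart.

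Ccng1 encodes cyclin G1, a p53 target that recruits a phosphatase to MDM2. It was the most abundant of the 8 genes by FPKM in 5 of the 6 hearts. Its gene (ENSRNOG00000003256) lies at 25903911 to 25910325 of chromosome 10, minus strand. It was at 1252, 1258 and 592.9 CPM in young animals 3, 13 and 15, and at 145.3, 380.8 and 507.7 CPM in aged animals 3, 4 and 7. The groups did not overlap, but aged animal 7 and young animal 15 lay closer to each other than either lay to the extreme of its own group. Means were 1034 ± 382.2 CPM in young and 344.6 ± 183.9 CPM in aged donor hearts (SD, n = 3 each), and the log2 fold change was -1.59 (standard error 0.56, unadjusted p = 0.027, adjusted p = 0.113 in edgeR with Benjamini-Hochberg adjustment). Aged animal 3, the lowest for Ccng1, was also the lowest for the cardiomyocyte markers, at 189.5 CPM. With their mean level as a covariate the log2 fold change of Ccng1 was -0.29 (unadjusted p = 0.502 from edgeR). Marker level and donor age go together in these hearts and cannot be told apart by this fit, and the cause was not tested. Under scaling by library totals alone, which moved the median of all genes to 0.46, Ccng1 was at -1.08 (unadjusted p = 0.0657 from edgeR). Its call was also lost without young animal 3, young animal 13 or aged animal 4.

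**Figure D1:**
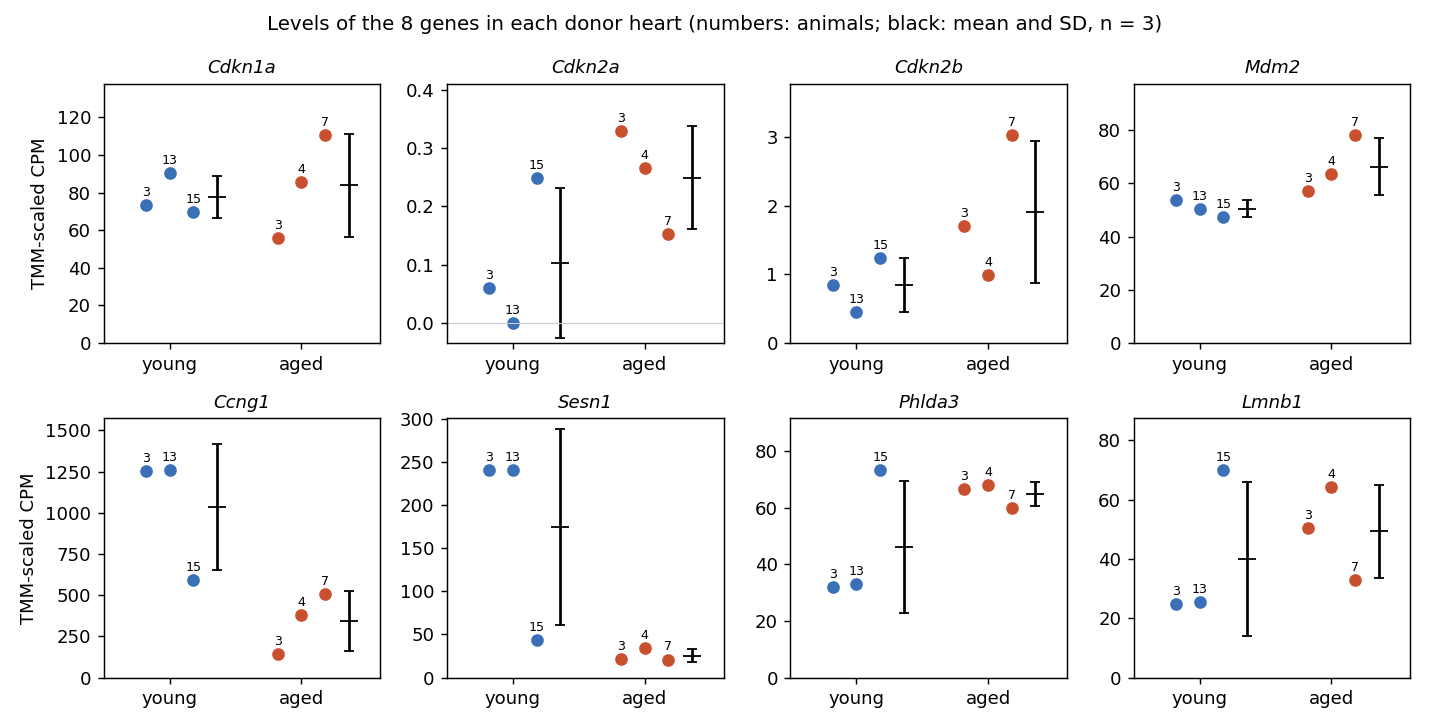
TMM-scaled CPM of the 8 genes in each heart, with 1 panel per gene and its own vertical axis. Points are hearts labelled by animal number, and black marks give the group mean and SD (n = 3). Sesn1 and Ccng1 are the genes whose 3 aged points all lie below the young points, Mdm2 is the gene whose aged points all lie above them, and young animal 15 is near the aged points for Sesn1, Phlda3 and Lmnb1.

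Mdm2, the ligase that marks p53 for breakdown and is induced by it, showed a small difference in the other direction. Its gene (ENSRNOG00000006304) lies at 60719066 to 60743328 of chromosome 7, minus strand. It was at 53.8, 50.4 and 47.4 CPM in young animals 3, 13 and 15, and at 57.3, 63.6 and 78.1 CPM in aged animals 3, 4 and 7. The lowest aged donor heart was above the highest young one, an order that 21.0% of genes tested had. It was the only tested member with that order, and the young hearts were close together (50.5 ± 3.24 CPM, against 66.3 ± 10.7 CPM in aged donor hearts, SD, n = 3 each). The log2 fold change of 0.39 (standard error 0.18) was below the fold limit and its unadjusted p was 0.0675. It was 0.85 under scaling by library totals (unadjusted p = 0.00919) and 0.63 with the cardiomyocyte covariate (unadjusted p = 0.0426), and either setting put it past the limits.

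Phlda3 encodes a p53-induced protein that competes with AKT for membrane lipids. Its gene (ENSRNOG00000009068) lies at 52588917 to 52592001 of chromosome 13, plus strand. It was at 32.1, 33.1 and 73.2 CPM in young animals 3, 13 and 15, and at 66.6, 68.0 and 60.0 CPM in aged animals 3, 4 and 7. The aged hearts were close together, and young animal 15 was the highest of the 6 hearts. The log2 fold change was 0.49 (standard error 0.35, unadjusted p = 0.207), so the gene was not called with all hearts. Without young animal 15 it was 1.03 (unadjusted p = 0.00030 from edgeR) and passed the limits.

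Cdkn1a encodes p21, the inhibitor through which p53 stops the cell cycle. Its gene (ENSRNOG00000000521) lies at 6351458 to 6358864 of chromosome 20, plus strand. It was at 73.5, 90.3 and 69.4 CPM in young animals 3, 13 and 15, and at 55.7, 85.8 and 110.4 CPM in aged animals 3, 4 and 7. The groups overlapped, and the aged group held both the lowest and the highest heart. The log2 fold change of 0.11 (standard error 0.28, unadjusted p = 0.705) was smaller than its error, and the exact permutation test gave p = 1. It was -0.13 without aged animal 7, 0.57 under scaling by library totals (unadjusted p = 0.0930) and 0.68 with the cardiomyocyte covariate (unadjusted p = 0.052), so its sign was not determined. Relative to Mdm2, a ratio that no scaling changes, Cdkn1a had 1.37, 1.79 and 1.47 counts per Mdm2 count in young animals 3, 13 and 15, and 0.972, 1.35 and 1.42 in aged animals 3, 4 and 7.

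Cdkn2a (ENSRNOG00000059837, from 107823330 to 107841175) and Cdkn2b (ENSRNOG00000006735, from 107845951 to 107858104) are neighbours on chromosome 5, both on the minus strand. Their nearest coordinates lie 4776 bases apart. On that strand the gap runs from the end of Cdkn2b to the start of Cdkn2a. Cdkn2a had 1, 0 and 6 reads in the young hearts (animals 3, 13 and 15) and 10, 7 and 4 reads in the aged hearts (animals 3, 4 and 7). These counts lie near 3, the smallest number taken as a signal, which in young animal 13 corresponds to 0.191 CPM, and the gene did not pass the filter. Its transcripts for p16 and p19Arf were counted together. Cdkn2b, in the same order of hearts, had 14, 7 and 30 reads in the young group and 52, 26 and 79 reads in the aged group, which gave 0.847, 0.445 and 1.24 CPM against 1.71, 0.986 and 3.03 CPM. Its groups overlapped, since young animal 15 lay above aged animal 4. The log2 fold change was 1.15 (standard error 0.58, unadjusted p = 0.0893), and it passed the limits only in limma-voom with quality weights (1.51, unadjusted p = 0.0215) among the settings tried.

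Lmnb1 encodes lamin B1, a filament protein under the inner nuclear membrane. Its gene (ENSRNOG00000013774) lies at 51785111 to 51822264 of chromosome 18, plus strand. It was at 24.7, 25.4 and 69.9 CPM in young animals 3, 13 and 15, and at 50.6, 64.3 and 33.0 CPM in aged animals 3, 4 and 7. Young animal 15 was the highest heart and the other young hearts were the lowest, so the groups overlapped. The log2 fold change was 0.30 (standard error 0.48, unadjusted p = 0.554). It was 1.01 without young animal 15 (unadjusted p = 0.0133 from edgeR) and -0.12 with the cardiomyocyte covariate. Lmna, which encodes lamins A and C, was likewise high in young animal 15 and aged animal 4, at 286.2, 265.8 and 667.3 CPM in young animals 3, 13 and 15 and at 422.2, 688.8 and 441.6 CPM in aged animals 3, 4 and 7 (log2 fold change 0.35, standard error 0.45). It was past the limits without young animal 15 (0.94, unadjusted p = 0.017 from edgeR) and in limma-voom (0.83).

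**Figure D2:**
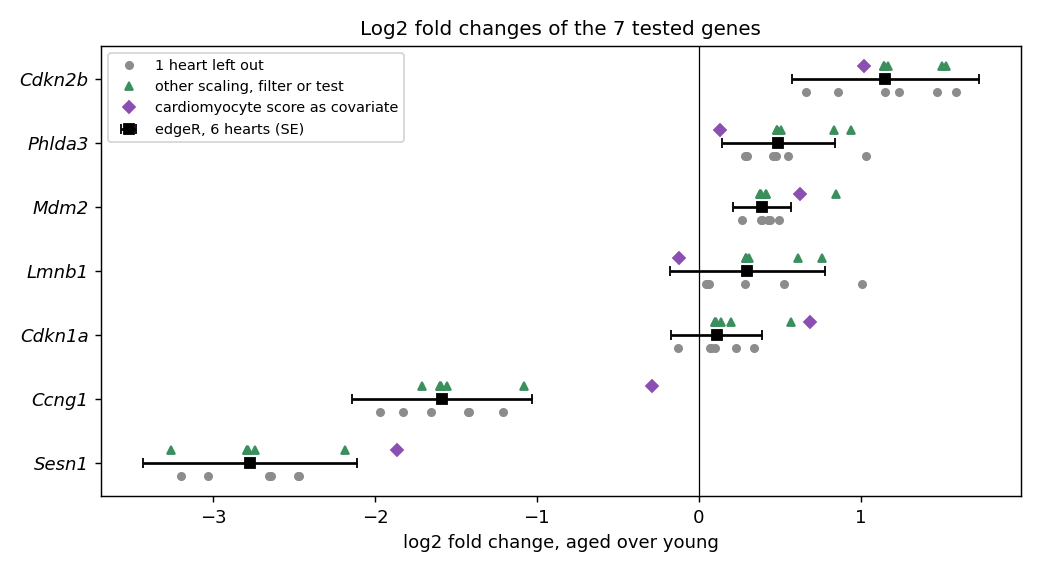
Log2 fold change, aged over young, of the 7 tested genes. Black squares with bars give edgeR on 6 hearts with the standard error, grey points leave out 1 heart each, green triangles use another scaling, filter or test, and purple diamonds use the cardiomyocyte marker score as a covariate. Sesn1 and Ccng1 stay below 0 in all of them, from -3.26 to -1.86 and from -1.97 to -0.29, while points of Cdkn1a and Lmnb1 fall on both sides of 0.

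On the length-scaled FPKM scale, the order of the genes in young animals 3 and 13 was Ccng1, Sesn1, Cdkn1a, Phlda3, Mdm2 and Lmnb1, followed by Cdkn2b and Cdkn2a. An order within a heart does not depend on how libraries are scaled. Sesn1, the second gene of the 8 in those hearts at 53.6 and 51.0 FPKM, was the sixth in young animal 15, at 13.8 FPKM, and in every aged donor heart, at 7.06 to 11.2 FPKM. Phlda3 went from rank 4 in young animals 3 and 13 to ranks 1 to 3 in young animal 15 and the aged hearts, where it was at 48.9 to 58.0 FPKM. In aged animal 3, Phlda3 at 58.0 FPKM and Ccng1 at 55.6 FPKM were nearly equal, whereas in young animal 3 the values were 17.4 and 297.7 FPKM. Mean levels in young donor hearts were 39.5 ± 22.3 FPKM for Sesn1, 33.9 ± 4.83 for Cdkn1a and 30.1 ± 22.4 for Phlda3 (SD, n = 3 each), which do not differ beyond their spread. In aged donor hearts the means of Phlda3 (53.7 ± 4.56 FPKM) and Cdkn1a (50.3 ± 15.1 FPKM) did not differ beyond their spread, nor did those of Lmnb1 (27.0 ± 8.25 FPKM) and Mdm2 (26.6 ± 3.76 FPKM).

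**Figure D3:**
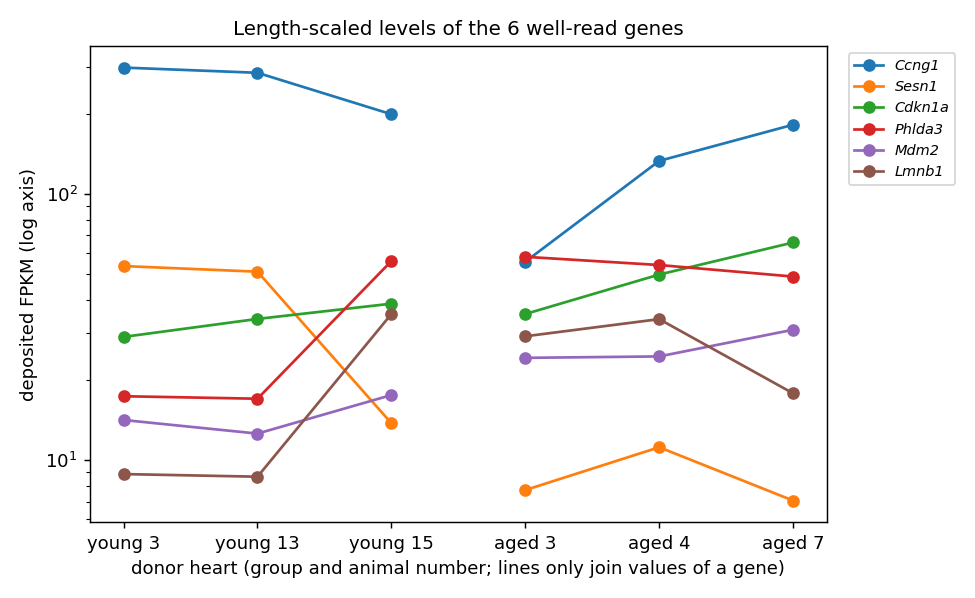
Deposited FPKM, on a log axis, of the 6 genes with ample reads in each of the 6 hearts, with lines joining the values of a gene within a group. Sesn1 falls from second place among the 8 genes in young animals 3 and 13 to below Lmnb1 and Mdm2 in young animal 15 and the aged hearts. It lies at 13.8 FPKM in young animal 15 and at 7.06 to 11.2 FPKM in the aged hearts.

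Other p53 targets were examined as a list of 32 genes, of which 30 were in the table and 27 were tested. Of these, 8 were higher and 1 was lower in aged donor hearts, beside 13.2% higher and 19.0% lower among all genes, and their median log2 fold change was 0.52. The count was 3 higher and 0 lower with the cardiomyocyte covariate, and 14 higher and 4 lower without young animal 15. It was 5 higher and 0 lower without young animal 13 or aged animal 7. Over all genes, 363 of 13784 were higher and 424 lower with the covariate, and 3802 of 14109 higher and 3412 lower without young animal 15. Without young animal 13, 862 of 14060 were higher and 1633 lower, and without aged animal 7, 1238 of 14083 higher and 1924 lower. The 3 largest rises of the list were those of Pmaip1, Plk3 and Aen. Pmaip1, which encodes the BH3-only protein NOXA, went from 5.81, 3.62 and 7.72 CPM in young animals 3, 13 and 15 to 51.3, 11.6 and 33.9 CPM in aged animals 3, 4 and 7 (log2 fold change 2.49, standard error 0.59). Plk3, a stress-activated kinase, was at 4.11, 4.77 and 18.2 CPM in young and 57.9, 43.6 and 44.9 CPM in aged donor hearts (log2 fold change 2.43, standard error 0.61). Aen, a nuclease induced by p53, was at 14.5, 12.7 and 27.1 CPM in young and 44.7, 50.0 and 64.3 CPM in aged donor hearts (log2 fold change 1.55, standard error 0.34). The groups did not overlap in any of these 3 genes, which were picked for their large rises. All aged hearts lay above all young hearts in 10 of the 27 tested genes of the list and in 21.0% of all genes tested. Pmaip1 and Plk3 did not pass with the cardiomyocyte covariate, at 1.38 and 1.67 (unadjusted p = 0.0726 and 0.051). Plk3 was at 3.50 and Aen at 2.01 without young animal 15.

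The only lower gene of the list was Perp, a p53 target that is also a protein of desmosomes, the junctions that hold cardiomyocytes together. It was at 76.1, 75.7 and 19.0 CPM in young animals 3, 13 and 15 and at 0.46, 11.7 and 9.08 CPM in aged animals 3, 4 and 7 (log2 fold change -3.01, standard error 1.10). Aged animal 3 was the lowest heart for Perp and for the cardiomyocyte markers. With their mean level as a covariate the log2 fold change of Perp was -0.10. That level and donor age go together in these hearts and cannot be told apart by this fit, and the cause was not tested. The call was also lost without young animal 3, young animal 13, aged animal 4 or aged animal 7.

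Sesn2, the paralog of Sesn1 with the same known role, was chosen for comparison after its values were seen. It was at 22.0, 29.8 and 25.9 CPM in young animals 3, 13 and 15 and at 60.4, 41.9 and 68.6 CPM in aged animals 3, 4 and 7, so that the groups did not overlap (log2 fold change 1.14, standard error 0.24, unadjusted p = 0.00267, adjusted p = 0.0916 in edgeR with Benjamini-Hochberg adjustment). Sesn2 kept its call in every other scaling, filter and test tried, with the cardiomyocyte covariate and without any 1 heart, except that it was not called at an adjusted p under 0.05 in edgeR. The sestrins thus differed in opposite directions. There were 10.9, 8.07 and 1.69 Sesn1 counts per Sesn2 count in young animals 3, 13 and 15, and 0.356, 0.816 and 0.306 in aged animals 3, 4 and 7. Sesn1 had more counts than Sesn2 in every young donor heart and fewer in every aged donor heart. The mean log2 ratio, aged minus young, was -3.57 (exact permutation test, two-sided, p = 0.1, the smallest possible). As the pair was chosen after its values were seen, this p adds no support, and the ratio is a description alone. Bax, the pore-forming death effector, was also chosen after its values were seen, and was at 18.5, 15.6 and 34.3 CPM in young and 46.9, 54.0 and 52.6 CPM in aged donor hearts (log2 fold change 1.17, standard error 0.32). Bax did not pass with the cardiomyocyte covariate (0.98, unadjusted p = 0.0722).

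**Figure D4:**
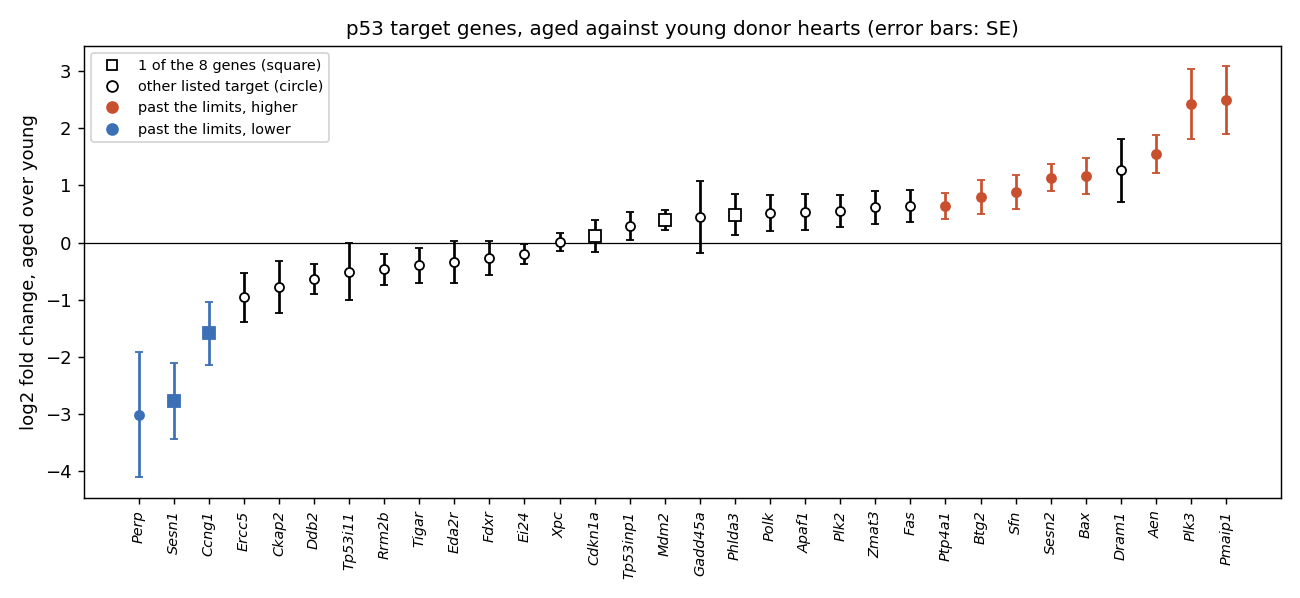
Log2 fold change, aged over young, with standard errors from edgeR for the 27 tested genes of the p53 target list (circles) and 5 p53 targets among the 8 genes (squares), sorted by value. Filled marks passed the limits, with 8 circles higher (red), and Perp, Sesn1 and Ccng1 lower (blue).

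Mdm4, which encodes the partner of MDM2 that blocks p53, was at 53.7, 44.1 and 22.1 CPM in young animals 3, 13 and 15 and at 31.7, 22.7 and 26.4 CPM in aged animals 3, 4 and 7. The groups overlapped, with young animal 15 the lowest of the 6 hearts, and the log2 fold change of -0.57 (standard error 0.34, unadjusted p = 0.148) did not pass. It was lower past the limits without young animal 15 (-0.82, unadjusted p = 0.00591 from edgeR) and in limma-voom (-0.90), and was at -0.030 under scaling by library totals.

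The inhibitors of G1 kinases and their partners showed 1 gene higher and 3 lower among 17 tested, beside 13.2% and 19.0% of all genes, with a median log2 fold change of -0.046. Without young animal 15 the counts were 6 higher and 5 lower of 17, beside 3802 and 3412 of 14109 genes. E2f2, a transcription factor of cell cycle entry, was higher (log2 fold change 1.39, standard error 0.35). Lower were Ccnd2, which encodes cyclin D2 (-1.38, standard error 0.35), Rbl2, which encodes the retinoblastoma relative p130 (-0.98, standard error 0.32), and Cdkn2c, which encodes the INK4 inhibitor p18 (-0.94, standard error 0.32). Cdkn2c, of the same family as Cdkn2a and Cdkn2b, was at 11.3, 11.2 and 18.5 CPM in young animals 3, 13 and 15 and at 5.81, 9.33 and 6.13 CPM in aged animals 3, 4 and 7. With the cardiomyocyte covariate none of these 4 genes passed, with E2f2 at 0.56, Ccnd2 at -0.85, Rbl2 at -1.04 and Cdkn2c at -0.91. Under scaling by library totals Rbl2 and Cdkn2c did not pass, at -0.44 and -0.57. Rbl2 also lost its call without young animal 3, young animal 13, aged animal 4 or aged animal 7, and Cdkn2c without young animal 15 (-0.63), aged animal 3 or aged animal 7.

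A further list held lamins, chromatin genes linked to senescence, and 2 others, Glb1 and Trim35. Of its 15 tested genes, 1 was higher and 2 were lower, beside 13.2% and 19.0% of all genes, with a median log2 fold change of -0.21. Hmga1, an architectural protein found in senescence foci, was higher (0.85, standard error 0.23), and Trim35 (-1.17, standard error 0.32) and the histone chaperone Asf1a (-0.60, standard error 0.21) were lower. Without young animal 15 the counts were 4 higher and 4 lower of 15, beside 3802 and 3412 of 14109 genes. Trim35 and Asf1a did not pass with the cardiomyocyte covariate, at -0.53 and -0.54. Asf1a was at -0.12 under scaling by library totals and did not pass there, nor without young animal 3, young animal 13, aged animal 3 or aged animal 4. Proliferation markers had 1 of 14 tested genes higher (Pcna) and 1 lower (Cenpf), both named after their values were seen and neither called with the cardiomyocyte covariate. Without young animal 15, 6 of the 14 were higher and 0 lower, beside 3802 and 3412 of 14109 genes. Cenpf was also lost under library totals and without young animal 15, aged animal 3 or aged animal 7, and Pcna without young animal 3, young animal 13 or aged animal 4. The markers summed to 405, 395.1 and 1014 CPM in young animals 3, 13 and 15 and to 679.9, 869 and 451.7 CPM in aged animals 3, 4 and 7. This is the order of the hearts for Lmnb1 in all but young animals 3 and 13, and the part of proliferating cells in the level of Lmnb1 was not tested.

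Genes that senescent cells are known to secrete, many of which inflammatory cells and injured tissue also make, had 11 higher and 2 lower among 25 tested, beside 13.2% and 19.0% of all genes, with a median log2 fold change of 1.91. The count of higher genes was 6 of 25 with the cardiomyocyte covariate and 20 of 26 without young animal 15. Over all genes the same fits had 363 of 13784 and 3802 of 14109 higher. The largest rises were those of the neutrophil chemokine Cxcl2 (5.68, standard error 0.85), the cytokine Il6 (4.64, standard error 1.34) and Angptl4, a regulator of lipoprotein lipase (4.13, standard error 0.95). Il6 had 0, 0 and 10 reads in the young hearts (animals 3, 13 and 15) and 94, 26 and 213 in the aged hearts (animals 3, 4 and 7), so its value rests on few reads and its fitted fold change depends on the prior count. Without young animal 15 the young hearts held 0 Il6 reads, and Angptl4 was at 5.84. Vegfa, the endothelial growth factor (-2.61, standard error 0.86), and Igfbp5, a binding protein of insulin-like growth factors (-1.65, standard error 0.40), were lower. Vegfa was at -0.76 with the cardiomyocyte covariate (unadjusted p = 0.483) and lost its call without young animal 13, aged animal 3 or aged animal 4. These rises stood beside the neutrophil and macrophage marker levels given above, and the part of those cells in them was not tested.

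The gene whose level over the 6 hearts was nearest to that of Lmnb1 was Aurka, a mitotic kinase, followed by Cdc25c and Plk4, which also act in cell division. Their centred log2 CPM differed from that of Lmnb1 by a root mean square of 0.075, 0.10 and 0.11 among 12957 genes with at least 1 CPM on average. The nearest to Cdkn1a were Bmpr2, Zfyve9 and Ern1, at 0.10, 0.10 and 0.11. As 6 hearts and many genes were compared, this is a description of likeness alone.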

How the data were processed

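RNA-Seq was performed on polyadenylated RNA of 3 young and 3 aged donor hearts. The authors deposited raw read counts per Ensembl rat gene and FPKM values, the latter dividing the count by gene length and library total, which held for all 48 values of the 8 genes (within 1%). The submitters' processing notes name HISAT2 2.0.5, StringTie 1.3.3b, featureCounts 1.5.0-p3, DESeq2 1.16.1, GATK 3.7 and build Rnor_6.0 without their order, and whether counting used strand is not given in the sources used here. All per-heart columns belong to the 6 hearts.

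The counts were fitted with edgeR 4.0.16 (R 4.3.3). Genes were kept by filterByExpr, libraries scaled by TMM, and aged compared with young donor hearts by the quasi-likelihood test without covariates. Standard errors were taken as log2 fold change over root F. Permutation tests (scipy 1.17.1, two-sided, exact) used log2 CPM with a prior count of 2. Alternatives were DESeq2 1.42.0 (its size factors and its Wald test), limma-voom 3.58.1 with quality weights, library totals, other filters, a cardiomyocyte covariate and leaving out each heart. The test was tried on simulated data with 200 genes changed 4-fold, counting genes at a Benjamini-Hochberg adjusted p under 0.05. At a dispersion of 0.05, 206 of 13710 genes passed in edgeR, 195 of them changed. At the estimated dispersions 46 of 13647 passed, 44 of them changed. These counts do not give the error rate of the calls made here at an unadjusted p.

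The genes and lists were chosen with earlier results of these data known. Named besides the 8 genes were the 3 largest rises and falls past the limits, at 1 CPM or more, in each list that is not a marker list, together with Mdm4, Lmna and the 3 nearest profiles to Cdkn1a and Lmnb1. One result under this rule is not reported here. The p-values measure the spread between these hearts. The labels do not say that hearts were processed in batches.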

Additional observations from a re-analysis of the deposited data

How the results depend on the processing

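Of all genes tested, 4436 passed the limits. The count was 7504 in limma-voom, 787 with the cardiomyocyte covariate and 0 with adjusted p-values, and it ran from 2432 to 7214 when 1 heart was left out (the ends being young animals 3 and 15). By adjusted p alone, 0 genes passed in edgeR, 3592 in DESeq2 and 8416 in limma-voom. Scaling by library totals gave 3147 higher and 1441 lower genes in place of 1815 and 2621. The count of the 8 genes past the limits was 2, and it was 5 in limma-voom, 1 with the covariate (Mdm2, higher) and 0 with adjusted p-values, and ran from 1 to 4 when 1 heart was left out. In those fits the log2 fold change ran from -3.20 to -2.47 for Sesn1, which kept its call, from -1.97 to -1.21 for Ccng1, which lost it in 3 of 6, from -0.13 to 0.34 for Cdkn1a, from 0.29 to 1.03 for Phlda3, from 0.046 to 1.01 for Lmnb1, from 0.27 to 0.49 for Mdm2 and from 0.66 to 1.59 for Cdkn2b. Past the limits in limma-voom were also Cdkn2b (1.51), Phlda3 (0.94) and Lmnb1 (0.76), and Mdm2 passed under library totals (0.85) and with the covariate (0.63). Ccng1 did not pass under library totals (-1.08) or with the covariate (-0.29), nor did Sesn1 with the covariate (-1.86), and Lmnb1 changed sign with it (-0.12). The cause was not tested. The cardiomyocyte level and donor age go together in these hearts, and a covariate on 6 hearts leaves few degrees of freedom. No paired analysis was possible because the groups share only 1 animal number, and it marks different animals. Counts of Cdkn2a and Cdkn2b limit their precision.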

Other observations

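The deposited table assigns 64 genes to the KEGG p53 signaling pathway, 4 of which are among the 8 genes described, and 59 were tested. Of these, 15.3% were higher and 11.9% lower in aged donor hearts, beside 13.2% and 19.0% of all genes tested. The pathway was examined after the results were seen, so only counts are given. Higher genes not yet described included Bid, a death agonist that links receptors to mitochondria, at 4.24, 4.51 and 25.8 CPM in young animals 3, 13 and 15 and 59.8, 44.1 and 40.5 CPM in aged animals 3, 4 and 7. Ccng2, which encodes cyclin G2 and is the paralog of Ccng1, was lower (-1.52 on the log2 scale, standard error 0.45). Its level was 45.7, 52.7 and 16.4 CPM in young and 16.6, 10.8 and 12.7 CPM in aged donor hearts, so young animal 15 lay within the range of the aged group. Cycs, which encodes cytochrome c, was lower as well, at 1037, 1061 and 189.2 CPM in young and 112.9, 135.2 and 178.3 CPM in aged donor hearts.

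For the KEGG pathway of cellular senescence, 144 of 155 genes were tested. Of these, 11.8% were higher and 16.7% lower, beside 13.2% and 19.0% of all genes tested, so neither share exceeded the background. Among its lower genes, Map2k6, a kinase upstream of p38, was at 17.4, 13.9 and 5.99 CPM in young animals 3, 13 and 15 and at 1.97, 2.20 and 2.38 CPM in aged animals 3, 4 and 7 (log2 fold change -2.51, standard error 0.43). Gata4, a cardiac transcription factor, was at 168.1, 186.7 and 132.5 CPM in young and 26.5, 81.9 and 68.9 CPM in aged donor hearts. Tgfb1 was higher, at 59.7, 56.8 and 146.2 CPM in young and 230.7, 184.1 and 158.9 CPM in aged donor hearts. With the cardiomyocyte covariate Bid, Ccng2, Cycs, Gata4 and Tgfb1 did not pass (at 1.14, -1.49, -1.44, -0.46 and 0.49), whereas Map2k6 kept its call there and without any 1 heart. When 1 heart was left out, Bid and Tgfb1 kept theirs only without young animal 15 (3.50 and 1.75), and Ccng2 lost its call without aged animal 4.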
